A study of Oryza sativa with 12 samples.

Results

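Expansins were followed through the pedicels of 2 rice cultivars, as 10 genes given by their locus identifiers among the 35851 genes of the deposited table. They comprise 6 alpha-expansin genes on chromosomes 1, 2, 4 and 5 and 4 beta-expansin genes whose locus numbers follow each other on chromosome 10. The class of each gene was given with the list, and no annotation used here pairs these loci with gene names, coordinates or sequences, so they are called by locus. The cultivars were W517, which shatters easily, and DZ129, which has lost shattering, both wild type. RNA came from the abscission zone (AZ) and from the nonabscission zone (NAZ), the rest of the pedicel, at day 10 after flowering per the labels. The 4 groups DZ129AZ, DZ129NAZ, W517AZ and W517NAZ had 3 libraries each. The sources do not say whether a library was a plant or a pool of pedicels, so p-values measure the spread between these libraries. With 1 cultivar of each kind, shattering and every other difference between the cultivars cannot be told apart.

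Expansins are small secreted proteins that loosen the plant cell wall. They disturb the contacts between cellulose and the polysaccharides that coat it and do not cut the chains, and they work best in acid walls. Alpha-expansins are the class best known from cell growth, while beta-expansins are numerous in grasses, where some are pollen allergens. Both kinds of protein are known in growing tissue, and expansins have been studied in fruit softening and in the separation of cells during organ abscission.

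Levels are given as FPKM, read fragments scaled to gene length and to the total of the library, which can be compared between genes. The steps of the low values showed that the FPKM were whole reads divided by gene length and library total, so the reads were recovered. The libraries held 17113749 to 20886526 such reads. For the 10 expansins 1 read was worth 0.0309 to 0.0486 FPKM in DZ129AZ replicate 1, so levels below 0.1 FPKM rest on a few reads. Differences were tested with limma on log2(FPKM + 0.1) over the 23951 genes that reached 0.5 FPKM in 3 or more libraries. A call required an adjusted p under 0.05 together with more than a 2-fold difference (SE is the standard error of the log2 value), and every fold change refers to FPKM + 0.1, which understates the change of low genes.

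Of the 10 expansins, 6 passed the minimum of 0.5 FPKM, 3 of each class. All 6 AZ libraries reached the minimum for each of these genes. LOC_Os10g40720 and LOC_Os10g40730 reached it in 6 of 6 NAZ libraries and LOC_Os01g60770 in 5, while LOC_Os02g51040 and LOC_Os05g39990 reached it in 2 and LOC_Os10g40700 in 1. The latter 3 genes were therefore tested because of their AZ level, and a difference between the tissues was built into their selection.

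Among the alpha-expansins, LOC_Os01g60770 stood at 13.4, 12.3 and 11.01 FPKM in the DZ129AZ libraries and at 1.17, 1.05 and 0.978 FPKM in DZ129NAZ. In W517 it stood at 11.2, 11.1 and 11.8 FPKM in the AZ and at 0.647, 0.574 and 0.456 FPKM in the NAZ. Both AZ groups overlapped each other and lay far above both NAZ groups, and the W517NAZ libraries lay below those of DZ129NAZ. LOC_Os05g39990 stood at 10.7, 10.2 and 10.6 FPKM in DZ129AZ and at 0.776, 0.599 and 0.289 FPKM in DZ129NAZ. In W517AZ it stood at 2.02, 1.57 and 1.13 FPKM, and in W517NAZ it had 0, 2 and 2 reads, or at most 0.0828 FPKM. Each of its W517 groups lay below the DZ129 group of the same tissue without overlap. LOC_Os02g51040 stood at 2.47, 2.19 and 1.99 FPKM in DZ129AZ and at 7.68, 7.05 and 6.77 FPKM in W517AZ. It stood at 0.260, 0.345 and 0.334 FPKM in DZ129NAZ and at 0.754, 0.754 and 0.153 FPKM in W517NAZ. It was thus higher in the AZ of W517 than in that of DZ129, the reverse of LOC_Os05g39990, and its NAZ groups overlapped because 1 W517NAZ library was low.

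Among the beta-expansins, LOC_Os10g40720 had the highest level of the 10 genes in both AZ groups. It stood at 60.4, 67.0 and 57.2 FPKM in DZ129AZ and at 23.6, 23.5 and 24.99 FPKM in W517AZ. In DZ129NAZ it stood at 1.72, 1.86 and 1.72 FPKM, and in W517NAZ at 1.61, 0.664 and 1.51 FPKM. Of all genes, 4.77% had a higher mean in DZ129AZ, while 49.5% had one in DZ129NAZ. LOC_Os10g40730 stood at 38.4, 41.3 and 39.3 FPKM in DZ129AZ and at 10.9, 9.81 and 10.9 FPKM in W517AZ. In DZ129NAZ it stood at 2.37, 2.11 and 1.83 FPKM, and in W517NAZ at 1.25, 0.916 and 0.824 FPKM. Its 4 groups did not overlap in any of the 4 comparisons made. LOC_Os10g40700 stood at 8.94, 10.4 and 9.62 FPKM in DZ129AZ and at 3.82, 4.23 and 3.59 FPKM in W517AZ. Its NAZ groups overlapped, with 3 to 9 reads per library in DZ129NAZ and 2 to 13 in W517NAZ.

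**Figure D1:**
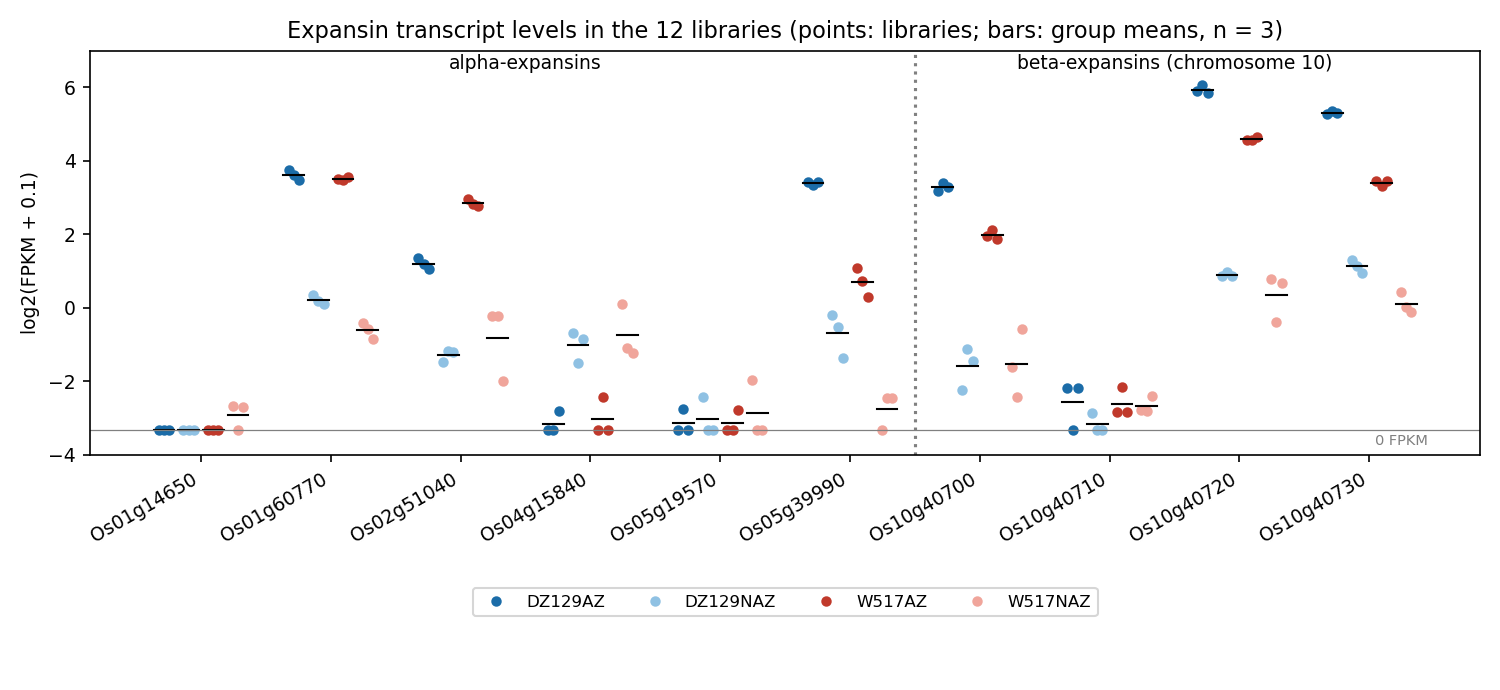
Levels of the 10 expansins on the scale log2(FPKM + 0.1), with 1 point per library, a bar at the mean of each group of 3, and alpha-expansins left of the dotted line. In 6 genes the AZ points lie above the NAZ points in both cultivars, LOC_Os04g15840 shows the reverse at a low level, and the other 3 genes lie near the line at 0 FPKM.

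The order of the levels differed between the cultivars. In DZ129AZ the mean levels fell from LOC_Os10g40720 at 61.6 ± 5.01 FPKM (SD, n = 3) and LOC_Os10g40730 at 39.6 ± 1.47 FPKM to LOC_Os01g60770 at 12.2 ± 1.18 FPKM. LOC_Os05g39990 at 10.5 ± 0.302 FPKM and LOC_Os10g40700 at 9.65 ± 0.732 FPKM followed, and these neighbours overlapped. In W517AZ the order was LOC_Os10g40720 at 24.0 ± 0.836 FPKM, LOC_Os01g60770 at 11.4 ± 0.382 FPKM, LOC_Os10g40730 at 10.5 ± 0.626 FPKM and LOC_Os02g51040 at 7.16 ± 0.469 FPKM, and none of these 4 overlapped its neighbour. LOC_Os05g39990 at 1.57 ± 0.443 FPKM came last of the 6 there, while in DZ129AZ that place was taken by LOC_Os02g51040 at 2.22 ± 0.241 FPKM. In the NAZ no member exceeded 2.37 FPKM in any library, and in W517NAZ each member's libraries overlapped those of the next in order.

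The other 4 expansins were near the limit of detection and were not tested. LOC_Os01g14650 had 1 read in each of 2 W517NAZ libraries and 0 in the other 10. LOC_Os05g19570 had 7 reads in all, with at most 3 in a library, and LOC_Os10g40710, whose locus number lies between those of the abundant LOC_Os10g40700 and LOC_Os10g40720, had 16 reads in all with at most 3 in a library. These 3 genes were too low at this depth for a difference to be shown. LOC_Os10g40710 had 1, 1 and 2 reads in W517NAZ and 1, 0 and 0 in DZ129NAZ, which overlap at 1 read. Its FPKM ranges did not overlap there only because 1 read was worth 0.044 FPKM in W517NAZ replicate 2 and 0.0379 FPKM in the deeper DZ129NAZ replicate 1. LOC_Os04g15840 went against the abundant members. It had 13, 6 and 11 reads in DZ129NAZ and 20, 8 and 7 in W517NAZ, but 0, 0 and 1 in DZ129AZ and 0, 2 and 0 in W517AZ, so that NAZ and AZ did not overlap in either cultivar. In FPKM its mean was 0.411 ± 0.138 (SD, n = 3) in DZ129NAZ and 0.562 ± 0.365 in W517NAZ. From the summed reads, the ratio of NAZ to AZ was 28.6 in DZ129, with a 95% Clopper-Pearson interval of 4.76 to 1167, and 19.1 in W517, with an interval of 4.91 to 164. These intervals cover counting error only. Without the minimum of 0.5 FPKM it was called lower in the AZ, with a limma adjusted p of 6.1e-04 in DZ129 and 3.2e-04 in W517.

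**Figure D2:**
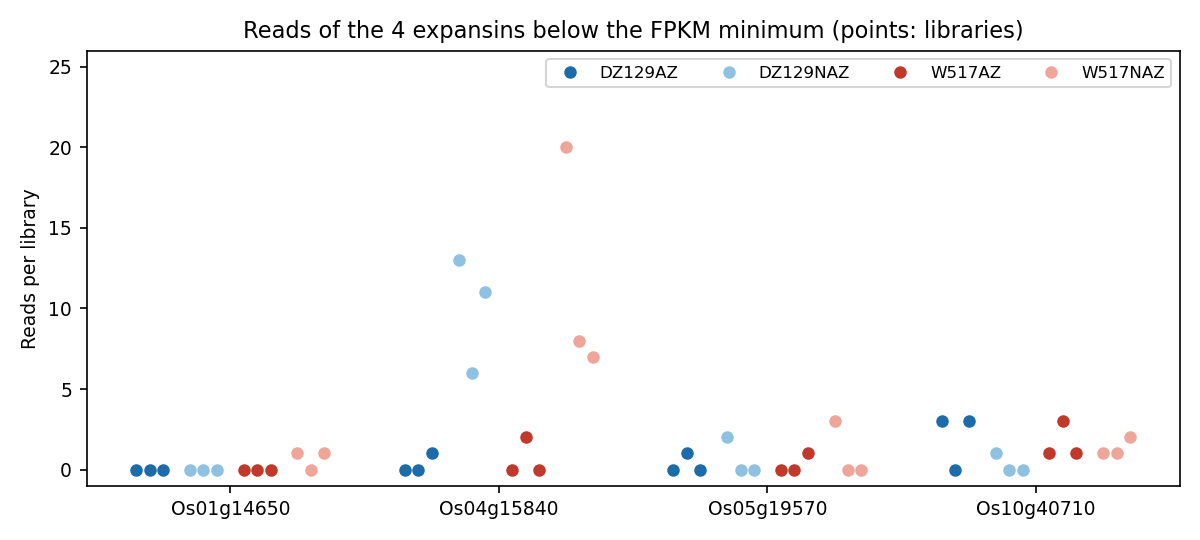
Reads per library of the 4 expansins that did not reach the minimum level, with 1 point per library. LOC_Os04g15840 had 6 to 20 reads in the NAZ libraries and 0 to 2 in the AZ libraries, and the other 3 genes had at most 3 reads in any library.

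The first comparison asked how the expansins differ between the AZ and the rest of the pedicel. In DZ129, the 6 tested genes, of 10, were called higher in the AZ, with LOC_Os10g40720 and LOC_Os10g40700 differing most and LOC_Os02g51040 least. Of all genes tested, 18.2% were called higher there and 28.0% in either direction. In W517 the same 6 genes were called higher in the AZ, beside 21.3% of all genes tested (33.7% in either direction), with LOC_Os10g40720 and LOC_Os01g60770 differing most. No tested member was called lower in the AZ of either cultivar, where 9.84% of all genes tested were called lower in DZ129 and 12.4% in W517. Because 3 of the 6 were tested through their AZ level, these counts are a description only. The median log2 fold change of the 6 was 4.14 in DZ129 and 3.59 in W517, beside 0.09 and 0.13 for all genes tested. Transcripts per cell and the share of cells that hold them cannot be told apart in these bulk samples.

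LOC_Os10g40720 was higher in the AZ of DZ129 by 5.04 on the log2 scale (SE 0.22, limma adjusted p 2.1e-10), a 33.0-fold difference exceeded by 37 of the 23951 genes tested. In W517 it was higher by 4.23 (SE 0.22, limma adjusted p 9.2e-10), an 18.8-fold difference exceeded by 48 genes. LOC_Os10g40730 was higher in the AZ by 4.18 in DZ129 and by 3.29 in W517 on the log2 scale, each with an SE of 0.13 and an adjusted p of at most 5.2e-11 in limma. LOC_Os10g40700, with few reads in the NAZ, was higher by 4.88 in DZ129 and by 3.51 in W517, each with an SE of 0.38. It was tested because of its AZ level, so no p-value is given for it here. These sizes depend on the pseudocount. With a pseudocount of 1, LOC_Os10g40700 was higher by 3.10 in DZ129 and 1.93 in W517, LOC_Os10g40730 by 3.71 and 2.53, and LOC_Os10g40720 by 4.50 and 3.50, all still called.

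The alpha-expansin LOC_Os01g60770 was higher in the AZ by 3.40 on the log2 scale in DZ129 (SE 0.13, limma adjusted p 4.1e-11) and by 4.13 in W517 (SE 0.13, limma adjusted p 4.2e-12). LOC_Os02g51040 and LOC_Os05g39990 were tested because of their AZ level, so no p-value is given for them here. LOC_Os02g51040 was higher by 2.49 in DZ129 and by 3.67 in W517, with an SE of 0.36. LOC_Os05g39990 was higher by 4.09 in DZ129 and by 3.45 in W517, with an SE of 0.32. Its value in W517 depended on the pseudocount, since W517NAZ held only 4 reads of it in all against 123 in W517AZ. The ratio of the summed reads was 28.2, with a 95% Clopper-Pearson interval of 10.7 to 105 that covers counting error only, while the fitted fold change was 10.9. With a pseudocount of 1 its log2 fold change there was 1.27. In the same setting it stood at 2.90 in DZ129, LOC_Os02g51040 at 1.29 in DZ129 and 2.42 in W517, and LOC_Os01g60770 at 2.68 and 2.99.

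**Figure D3:**
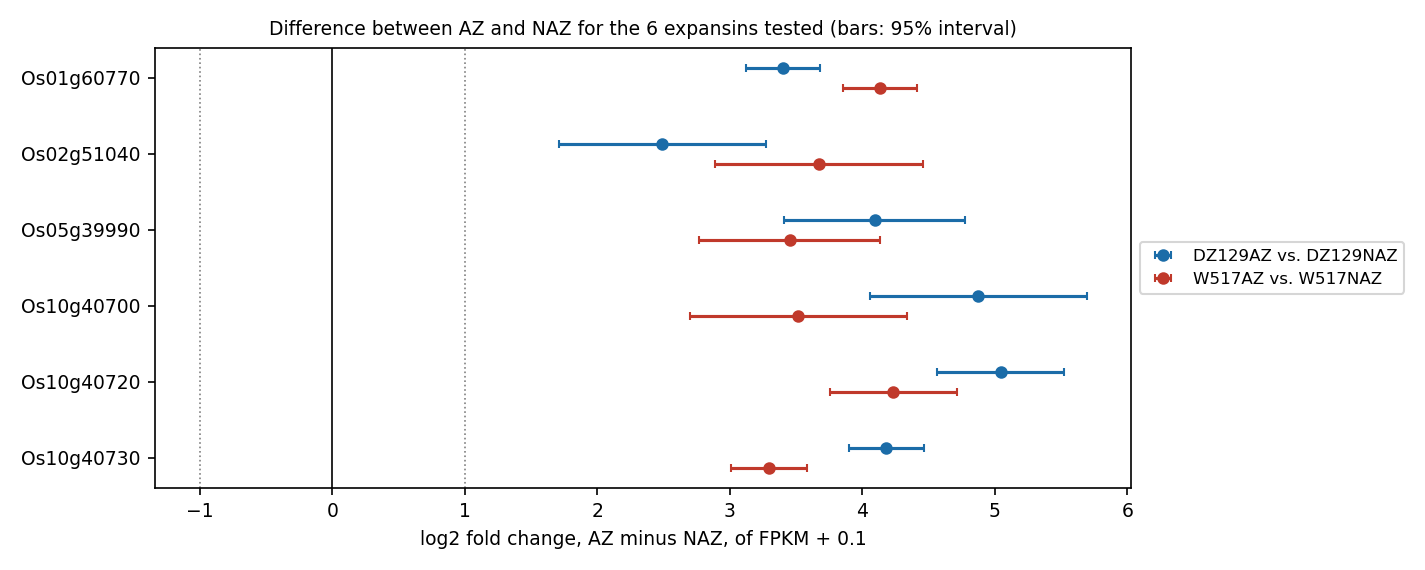
Log2 fold change of AZ minus NAZ in FPKM + 0.1 for the 6 expansins tested, with points for the limma estimate, bars for its 95% interval, and dotted lines at a fold change of 2. Every interval lies right of the line at 1, and the estimates run from 2.49 to 5.04 in DZ129 and from 3.29 to 4.23 in W517. LOC_Os02g51040, LOC_Os05g39990 and LOC_Os10g40700 were tested because of their AZ level, so a difference was built into their selection.

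The second comparison asked how the expansins differ between the AZ of the shattering and of the non-shattering cultivar. In W517AZ, 4 of the 6 tested expansins were called lower than in DZ129AZ, beside 16.4% of all genes tested, and 1 was called higher, beside 10.6% (27.1% of all genes in either direction). The 3 tested beta-expansins were all among the lower ones. The alpha-expansins divided, with 1 higher, 1 lower and 1 not called. The median log2 fold change of the 6 was −1.32, beside −0.07 for all genes tested.

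LOC_Os05g39990 fell most, by 2.70 on the log2 scale in W517AZ vs. DZ129AZ (SE 0.32, limma adjusted p 4.8e-06), or 6.49-fold. The beta-expansin LOC_Os10g40730 was 3.74-fold lower in W517AZ, at −1.90 on the log2 scale (SE 0.13, limma adjusted p 2.2e-08). LOC_Os10g40720 was 2.55-fold lower, at −1.35 (SE 0.22, limma adjusted p 1.1e-04), and LOC_Os10g40700 was 2.45-fold lower, at −1.29 (SE 0.38, limma adjusted p 0.0080). LOC_Os02g51040 was the member that was higher, 3.14-fold, at 1.65 (SE 0.36, limma adjusted p 0.0011). In each of these 5 genes the libraries of the 2 groups did not overlap. The share of all genes without overlap was not counted, so this is a description only. Each SE here draws on the spread within all 4 groups, those of the NAZ included. In the model of the 6 AZ libraries alone it was 0.18 for LOC_Os05g39990, 0.0575 for LOC_Os10g40730 and 0.061 for LOC_Os10g40720. For LOC_Os10g40700 it was 0.097 there, and for LOC_Os02g51040 0.11. For LOC_Os01g60770 no difference was called, at −0.10 with a 95% interval of −0.38 to 0.18 and an adjusted p of 0.50 in limma. That interval lies within a 2-fold difference in either direction. Its sign turned under quantile normalization, to 0.03.

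Summed over each class, the 6 alpha-expansins came to 24.96 ± 1.49 FPKM (SD, n = 3) in DZ129AZ and 20.2 ± 0.664 FPKM in W517AZ. The 4 beta-expansins came to 110.9 ± 6.77 FPKM in DZ129AZ and 38.5 ± 0.947 FPKM in W517AZ. The beta-expansins made up 81.6% of the summed level in DZ129AZ and 65.7% in W517AZ. Within the alpha-expansins, LOC_Os05g39990 held 42.1% of the sum in DZ129AZ and 7.77% in W517AZ, and LOC_Os02g51040 held 8.88% and 35.5%. LOC_Os01g60770 held 48.9% and 56.5%, and the libraries of the cultivars did not overlap in any of these 3 shares.

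**Figure D4:**
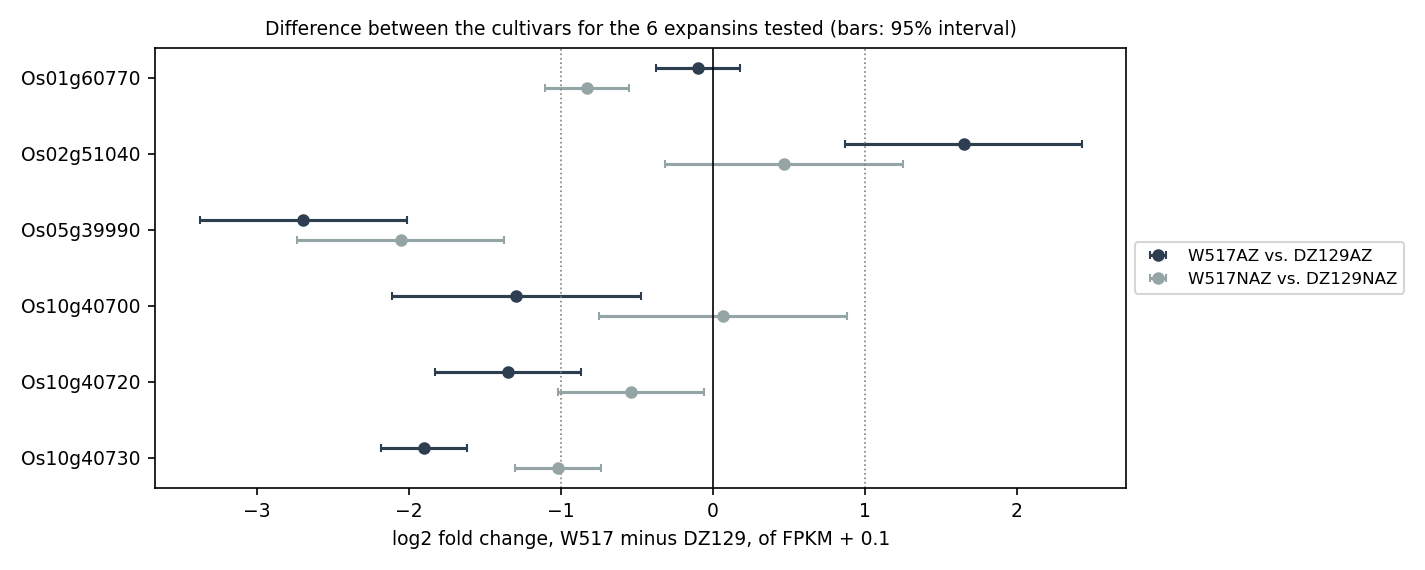
Log2 fold change of W517 minus DZ129 in FPKM + 0.1 for the 6 expansins tested, in the AZ (dark) and in the NAZ (grey), with 95% intervals from limma and dotted lines at a fold change of 2. In the AZ 4 genes lie to the left at −1.29 to −2.70, LOC_Os02g51040 lies to the right at 1.65 and LOC_Os01g60770 near 0, while the NAZ values run from −2.06 to 0.47.

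The third comparison set the NAZ of the cultivars side by side, where all members were low. Of the 6 tested, 2 were called lower in W517NAZ than in DZ129NAZ, beside 17.7% of all genes tested, and 0 were called higher, beside 10.0% (27.7% of all genes in either direction). At an unadjusted p under 0.05, 0 members were higher in W517NAZ, and limma voom on the recovered reads also called 0. LOC_Os05g39990 was lower by −2.06 on the log2 scale (SE 0.32, limma adjusted p 5.8e-05), from 46 reads in all in DZ129NAZ and 4 in W517NAZ. With pseudocounts of 0.5 and 1 this was −0.90 and −0.55 and was no longer called. LOC_Os10g40730 was lower by −1.02 (SE 0.13, limma adjusted p 1.1e-05), just past a fold change of 2. It was below that fold without DZ129NAZ replicate 1 (−0.93), without W517NAZ replicate 2 (−0.97) or without W517NAZ replicate 3 (−0.91), and also with median-ratio scaling (−0.95), pseudocounts of 0.5 (−0.80) and 1 (−0.64) and quantile normalization (−0.44). LOC_Os01g60770 was lower by −0.83 (SE 0.13, limma adjusted p 6.1e-05) and LOC_Os10g40720 by −0.54 (SE 0.22, limma adjusted p 0.044), both below a fold change of 2. Under quantile normalization LOC_Os01g60770 stood at −0.22 (limma adjusted p 0.12). In the model of the 6 NAZ libraries alone its SE was 0.18, and that of LOC_Os05g39990 was 0.38. The adjusted p of LOC_Os10g40720 did not stay below 0.05 with median-ratio scaling (0.075), in limma voom (0.090) or without W517NAZ replicate 2, where the value was −0.17. LOC_Os02g51040 at 0.47 and LOC_Os10g40700 at 0.07 had adjusted p of 0.26 and 0.88 in limma. Without W517NAZ replicate 3, which held 4 reads of LOC_Os02g51040 beside 19 and 20 in the others, that gene was called higher, at 1.05 (adjusted p = 1.0e-04 from limma). LOC_Os10g40700 then stood at −0.41.

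Whether the difference between AZ and NAZ was itself unlike in the cultivars was tested as an interaction, the log2 difference in W517 less that in DZ129, called at an adjusted p under 0.05 without a limit on size. Of the 6 tested expansins 2 were called, beside 43.4% of all genes tested, with 1 positive (21.4% of all genes) and 1 negative (22.0%). In this setting the share of these 6 members called was not above the background. LOC_Os01g60770 differed more between the tissues in W517, with an interaction of 0.73 (SE 0.18, limma adjusted p 0.0055), and under quantile normalization it was 0.25 with an adjusted p of 0.27. LOC_Os10g40730 differed less in W517, at −0.89 (SE 0.19, limma adjusted p 0.0018). LOC_Os10g40700 at −1.36 and LOC_Os10g40720 at −0.81 were also negative, with adjusted p of 0.056 and 0.053, and LOC_Os02g51040 at 1.18 and LOC_Os05g39990 at −0.64 had adjusted p of 0.079 and 0.27 in limma. With a pseudocount of 0.5 or 1 all 6 were called, a description only, since no share of all genes in those settings is set beside it. Without W517NAZ replicate 2, in which LOC_Os10g40720 was lowest, 5 were called, LOC_Os10g40720 among them at −1.18 (adjusted p = 4.4e-06 from limma). With a library left out, 9603 to 10224 of all genes tested were called. The sign of LOC_Os05g39990 turned in voom on the recovered reads, to 0.35 (adjusted p = 0.73). Over the alternatives its value ran from −1.625 to 0.348. The AZ of a cultivar enters both this comparison and the second, so the values are not independent of each other.

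The ratio of the 2 most abundant chromosome 10 genes was compared between the groups, a measure chosen after its values were seen, with too few libraries for its test to reach 0.05. LOC_Os10g40720 exceeded LOC_Os10g40730 in every AZ library, with a ratio of FPKM of 1.57, 1.63 and 1.46 in DZ129AZ and 2.17, 2.40 and 2.29 in W517AZ. In DZ129NAZ the ratio was 0.725, 0.881 and 0.942, so the order was turned, and in W517NAZ it was 1.29, 0.725 and 1.83. The ratios of the groups did not overlap between the tissues of either cultivar or between the AZ of the cultivars, where an exact two-sided permutation test gave p = 0.10 each, the smallest that 3 against 3 libraries allow, and 0.13 after Benjamini-Hochberg adjustment over 4 comparisons. Between the NAZ groups they overlapped (exact permutation p = 0.40). LOC_Os10g40700 made up 8.70% of the summed beta-expansin level in DZ129AZ and 10.1% in W517AZ, and LOC_Os10g40710 at most 0.329% in any AZ library. Reads of similar neighbouring genes can be given to the wrong gene or left out in counting, and no sequence was at hand to measure how alike these 4 genes are.

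**Figure D5:**
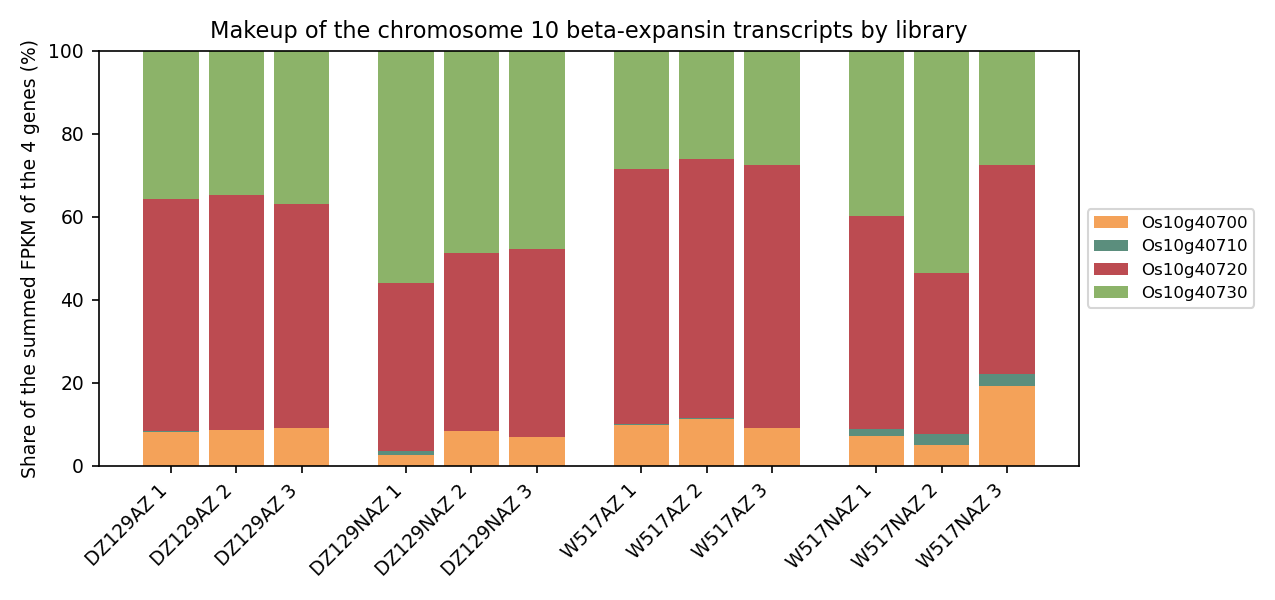
Share of each chromosome 10 beta-expansin in the summed FPKM of the 4 genes, with 1 bar per library. LOC_Os10g40720 takes 53.9% to 63.2% in the AZ libraries and 40.5% to 45.1% in DZ129NAZ, where LOC_Os10g40730 takes the largest share, and the W517NAZ bars vary most.

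Across the 12 libraries the levels of the 6 tested members were positively correlated on the log2(FPKM + 0.1) scale, with Pearson's r from 0.564 to 0.984 over their 15 pairs. These values are a description, since the libraries fall into 4 groups and share their depth scaling. The weakest pair was LOC_Os02g51040 with LOC_Os05g39990, and the closest was LOC_Os10g40700 with LOC_Os10g40720. Among all genes tested, those most like LOC_Os01g60770 were LOC_Os04g33990 (r = 0.998) and LOC_Os11g03420 (r = 0.998), and those most like LOC_Os10g40720 were LOC_Os03g08100 (r = 0.995) and LOC_Os06g04940 (r = 0.994), each over 12 libraries. LOC_Os06g04940 also had a similar height, with mean levels of 53.2 FPKM in DZ129AZ, 23.5 FPKM in W517AZ, 1.51 FPKM in DZ129NAZ and 1.39 FPKM in W517NAZ.

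Other expansins could be followed only in part. The study's table of genes specific to the AZ of W517, of which only the first part was used here, describes LOC_Os03g25990 as an expansin precursor. It had 30, 25 and 34 reads in the W517AZ libraries and at most 2 in any other library, a level of 1.27 ± 0.181 FPKM (SD, n = 3) in W517AZ. The study chose that table on these same libraries and the gene reached the minimum of 0.5 FPKM only in W517AZ, so its direction was fixed by selection and no test is given. A further 23 loci recalled from the rice expansin family, LOC_Os03g25990 included, are not annotated by the tables used here and were counted only as a list. Of these, 21 were in the file and 13 were tested. In the AZ, 8 of the 13 were called higher than in the NAZ in DZ129, beside 18.2% of all genes tested, and 11 in W517, beside 21.3%. The number called lower was 0 in both, also with limma voom, and at an unadjusted p under 0.05 limma-trend gave 1 lower in DZ129 and 0 in W517. Between the AZ of the cultivars 2 were called higher in W517, beside 10.6% of all genes, and 3 lower, beside 16.4%. The median log2 fold change of the 13 was 0.17, beside −1.32 for the 6 members tested. LOC_Os03g25990, with its direction fixed by selection, was among those called higher in W517AZ in both comparisons. In the interaction 5 of the 13 were called positive, LOC_Os03g25990 among them, and 5 negative, beside 21.4% and 22.0% of all genes tested. How many of the 13 passed the minimum only in AZ libraries was not counted, so these counts are a description only.

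Markers of other tissue moved with the groups. The 15 prolamin and glutelin genes in the part of the study's table used here, storage proteins of the grain, summed to 447 to 491 FPKM in W517AZ and 42.1 to 47.5 FPKM in W517NAZ, but to 1.93 to 3.81 FPKM in DZ129AZ and 1.12 to 1.62 FPKM in DZ129NAZ. All 14 that were tested were called higher in W517AZ than in DZ129AZ, beside 10.6% of all genes tested. The study's table holds only genes that differed between those groups, so a call was largely fixed by selection. Of the 15, 1 was at 0 in every DZ129AZ library. The 2 chlorophyll A-B binding protein genes in the same part of that table summed to 203 to 218 FPKM in DZ129AZ, 335 to 353 FPKM in DZ129NAZ, 79.9 to 88.0 FPKM in W517AZ and 215 to 223 FPKM in W517NAZ. The study chose both lists on these libraries, and their part in the expansin differences was not tested. The tables used here pair no locus with the names of the known abscission zone regulators, so the AZ label was not checked against them.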

How the data were processed

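The RNA of 12 stranded mRNA libraries was measured. Per the labels and the study's methods, reads were trimmed with Trimmomatic, aligned by HISAT2 to the MSU-RGAP reference, counted with HTSeq and turned into FPKM with Cufflinks, and the deposited values are these FPKM, 1 column per library. Versions of these tools are not given in the sources used here. Whole reads were assigned to all 35851 genes from the steps of the FPKM, within 0.02 reads for nearly all genes, and give the depth and 1 alternative test. For most genes they are the smallest whole numbers that fit. A gene read in only 1 library was mostly given 1 read, so true numbers can be a multiple for such genes. Zeros are genes without a read.

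Log2(FPKM + 0.1) was fitted with limma 3.58.1 (limma-trend, R 4.3.3) as a single model with a mean for each group and no block, with Benjamini-Hochberg adjustment over 23951 genes. The other 11900 genes were not tested. Other steps used Python 3.11.15, pandas 2.3.3 and scipy 1.17.1. The procedure was tried on simulated counts in which few genes changed, in W517AZ only. That setting is unlike these data, so it does not measure the accuracy of the calls here. Replicate numbers were not used to pair libraries in the main model. The study's methods do not say whether same-numbered libraries came from the same plants. The alternatives were pseudocounts of 0.5 and 1, no minimum or 1 FPKM, scaling by median ratios, quantiles forced equal, models of the 6 libraries compared, a replicate block, limma voom on the recovered reads and leaving out each library.

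Named are the 10 expansins, the 2 genes most like the most abundant member of each class, and the annotated expansin of the study's table. The members and lists were chosen with earlier results of these data known. The ratio within the chromosome 10 genes and the class sums were chosen after their values were seen. Lists of other wall enzymes were not used, since the RefSeq gene table could not be joined to these locus identifiers, and no sequence was at hand.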

Additional observations from a re-analysis of the deposited data

Results flagged for a closer look

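The difference between AZ and NAZ was not the same in the cultivars for 2 expansins, by the limma interaction test, which called 43.4% of all genes tested, a larger share than of the 6 expansins. For LOC_Os01g60770 it was larger in W517 by 0.73 on the log2 scale (adjusted p = 0.0055), and under quantile normalization by 0.25 (adjusted p = 0.27), with all 3 W517NAZ libraries below those of DZ129NAZ and overlapping AZ groups. For LOC_Os10g40730 the interaction was −0.89 (adjusted p = 0.0018), with each W517 group below the DZ129 group of the same tissue. Groups of 3 libraries are too small for a test of single outlying libraries.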

How the results depend on the processing

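In both comparisons of AZ with NAZ, the 6 tested expansins kept their direction and their call under every alternative run, including all 12 left-out libraries, and without the minimum 1 more, LOC_Os04g15840, was called lower in each cultivar. For LOC_Os02g51040, LOC_Os05g39990 and LOC_Os10g40700, tested because of their AZ level, that difference was built into the selection. In W517AZ vs. DZ129AZ the 5 calls also held throughout, and only the sign of LOC_Os01g60770, never called, turned under quantile normalization (0.0258). In W517NAZ vs. DZ129NAZ, where levels rest on few reads, the expansins called lower numbered 0 with pseudocount 0.5 and with pseudocount 1, and 1 with median-ratio scaling and with quantile normalization. Leaving out a library gave 1 to 2 lower and 0 to 1 higher. There LOC_Os10g40720 turned to 0.0126 under quantile normalization, and LOC_Os10g40700 ranged from −0.414 to 0.511 with a library left out, being negative without DZ129NAZ replicate 1 (−0.252) or W517NAZ replicate 3. In the interaction, 6 expansins were called with pseudocount 0.5 and 6 with pseudocount 1, 3 with median-ratio scaling and 3 with quantile normalization, where LOC_Os01g60770 was not among them (0.249). No share of all genes in these settings is set beside the counts, which are a description only. The main setting called 43.4% of all genes tested. With a library left out 2 to 5 were called in the interaction, beside 9603 to 10224 of all genes tested. LOC_Os05g39990 turned to 0.348 there with limma voom. The cause was not tested for any of these. Over all genes, pseudocount 1 gave 4385 called (in place of 6712) in DZ129AZ vs. DZ129NAZ, 4214 (6480) between the AZ groups and 4056 (6635) between the NAZ groups. Over all genes the median log2 value moved from 0.13 to 0.01 in W517AZ vs. W517NAZ with median-ratio scaling, and from −0.07 to 0.12 in W517NAZ vs. DZ129NAZ with quantile normalization. With the replicate number as a block 2 expansins and 10157 genes were called in the interaction and no call of an expansin changed. Same-numbered libraries had correlations of their deviations from −0.043 to 0.018 over 18 pairs, so the numbers were not used to pair them.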
